A study of Mus musculus with 6 samples.

Results

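The OAS family comprises the genes of the 2′-5′-oligoadenylate synthetases and the OAS-like proteins. The 8 genes described here, Oas1a, Oas1b, Oas1c, Oas1g, Oas2, Oas3, Oasl1 and Oasl2, were taken by symbol from a table of estimated read counts with 52856 rows. The RNA came from splenic CD4+ T cells of C57BL/6 mice aged 8 weeks. One group lacked miPEP31, a small peptide from the precursor RNA of miR-31 (genotype miPEP31-/-, here KO, 3 libraries), and the other was wild type (WT, 3 libraries). Cells of both genotypes had been grown in medium with serum and activated through CD3 and CD28 by antibodies over 48 hours, so no unstimulated cells enter the comparison. The labels do not say how the KO allele was made or whether the libraries of a group came from separate mice, so p-values measure the spread between these libraries, which may be technical.

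OAS enzymes bind double-stranded RNA, a frequent by-product of viral replication, and then join ATP into 2′-5′-linked oligoadenylates, called 2-5A. This second messenger leads to the cutting of RNA in the cell and limits viral growth. The family is known for its induction by interferons in many cell types, T cells included, through transcription factors that include STAT2 and IRF9. OAS-like proteins carry ubiquitin-like domains behind the OAS unit.

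Library totals lay between 22865487 and 26295776 counts. Mir31, the microRNA gene of the targeted locus, had 0 counts in all 6 libraries, so its counts do not check the genotype labels. No other row was examined for that purpose. Levels are given as CPM (counts scaled to library size, after TMM), with mean ± SD over 3 libraries. The quasi-likelihood test of edgeR was run over 14387 genes, and genes with a Benjamini-Hochberg adjusted p under 0.05 are said to have risen or fallen. A floor of 3 counts was used, which was between 0.112 and 0.131 CPM per library.

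All 8 genes rose in the KO, among them Oas1g, which passed the filter on low counts only through the KO libraries. The background is that 25.1% of all tested genes rose and 22.2% fell. At least a 2-fold rise was reached by 8 of 8, against 6.74% of all tested genes. In 8 of 8 the KO libraries lay above the WT libraries without overlap, which was so for 30.6% of all tested genes. The median log2 fold change of the 8 was 3.72, against 0.01 over all genes tested. The 8 genes were chosen with earlier results of these data known, so these comparisons with all tested genes are a description and not a test. The rises spanned a wide range, with Oasl2 100.3-fold and Oas1c 2.19-fold. Summed over the 8 genes, the level was 662, 559 and 440.0 CPM in the KO libraries, against 45.0, 36.1 and 42.6 CPM in the WT libraries. In bulk RNA, a change in the number of expressing cells and a change in RNA per cell cannot be told apart.

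**Figure D1:**
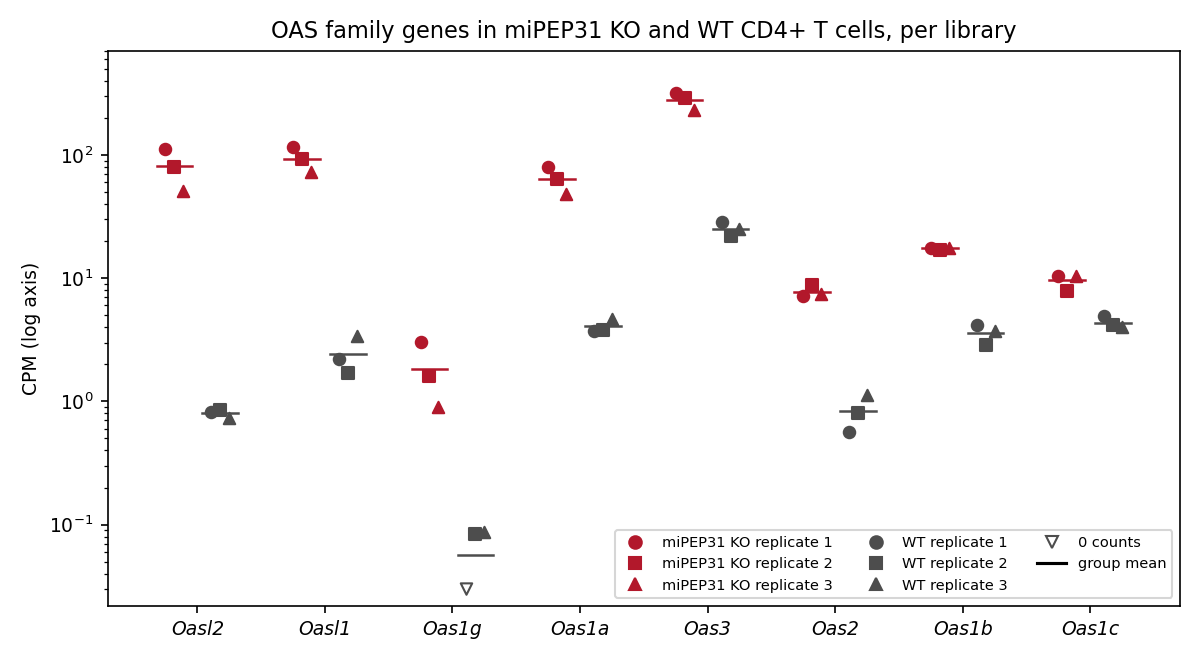
Level of each OAS family gene in CPM (vertical, log axis) in each miPEP31 KO (red) and WT (grey) library, with symbols for replicates and lines for group means; an open triangle at the bottom marks a library with 0 counts. For each of the 8 genes every KO library lies above every WT library, and the gap narrows from Oasl2 on the left to Oas1c on the right.

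The OAS-like genes showed the widest separation. Oasl2 (ENSMUSG00000029561, chromosome 5, 114896936 to 114912234, plus strand), which in mice encodes an OAS-like protein that keeps synthetase activity, had 112.5, 79.5 and 51.2 CPM in the KO libraries, against 0.823, 0.845 and 0.740 CPM in the WT libraries. The KO libraries differed from each other by up to 2.20-fold, while the WT libraries lay close together, on 19, 20 and 17 counts. Its log2 fold change of 6.65 (with SE 0.36, edgeR adjusted p = 1.35e-05) ranked 11 among the 14387 tested genes. Oasl1 (ENSMUSG00000041827, chromosome 5, 114923240 to 114937915, plus strand), whose mouse protein represses translation of the Irf7 mRNA, had 115.3, 92 and 72.8 CPM in the KO libraries, against 2.21, 1.69 and 3.40 CPM in the WT libraries. Its log2 fold change was 5.26 (SE 0.26, edgeR adjusted p = 7.78e-06). Irf7, the transcription factor gene whose mRNA that protein acts on, rose as well, with a log2 fold change of 6.31 (SE 0.19). An antisense gene model on the opposite strand of Oasl1, Gm13822, had 12, 5 and 1 counts in the KO libraries and 0 counts in each WT library. Overlapping models on the other strand of Oas2 (Gm43068) and of Oas1c (Gm43069) had 3 counts or fewer in every library. The sources used here do not state whether counting used strand.

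The Oas1 genes diverged from each other. Oas1a (ENSMUSG00000052776, chromosome 5, 120896256 to 120907521, minus strand), an active synthetase of the mouse, had 79.7, 64.1 and 48.4 CPM in the KO libraries, against 3.73, 3.80 and 4.66 CPM in the WT libraries. Its log2 fold change was 3.98 (SE 0.20, edgeR adjusted p = 1.01e-05). Oas1g (ENSMUSG00000066861, chromosome 5, 120876142 to 120887613, minus strand), the closest paralog of Oas1a and likewise an active synthetase, had 3.02, 1.60 and 0.903 CPM in the KO libraries, against 0, 0.0845 and 0.0871 CPM in the WT libraries. The WT values rest on 0, 2 and 2 counts, all under the floor, and the KO values on 70, 43 and 21 counts. From these counts alone the KO over WT ratio was 31.9, with an exact 95% counting interval of 12.2 to 118.7, and the fitted log2 fold change was 4.88 (SE 0.77, edgeR adjusted p = 0.00128). Oas1g passed the filter on low counts only through the KO libraries, so a rise was the only difference its test could find.

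Oas1a and Oas1g share much of their sequence. In the GENCODE M21 transcripts, 57.6% of all 50-base windows of Oas1a occur unchanged in Oas1g, and 45.2% of those of Oas1g occur in Oas1a. At 100 bases these shares were 40.9% and 31.2%. The deposited values were not whole numbers in 4 of the 6 libraries for both genes. How reads common to both were counted is not known, so the level of Oas1g is uncertain. The sum of both was 82.7, 65.7 and 49.3 CPM in the KO libraries, against 3.73, 3.89 and 4.74 CPM in the WT libraries. Oas1g made up 3.65%, 2.44% and 1.83% of that sum in the KO libraries, and 0%, 2.17% and 1.83% in the WT libraries. The remaining members shared fewer windows with other genes: 15.1% of 50-base windows for Oas1c, 2.98% for Oas1b, 0.521% for Oas3, 0.138% for Oasl2 and 0% for Oas2 and Oasl1.

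Oas1b and Oas1c rose least. Oas1b (ENSMUSG00000029605, chromosome 5, 120812635 to 120824163, plus strand), known as the flavivirus resistance gene of mice and carrying a premature stop codon in C57BL/6, is annotated as a polymorphic pseudogene. Its level was 17.7, 16.9 and 17.5 CPM in the KO libraries, against 4.20, 2.87 and 3.70 CPM in the WT libraries, with a log2 fold change of 2.27 (with SE 0.15, edgeR adjusted p = 2.57e-05). The KO values lay within 1.05-fold of each other, the narrowest range in the family. Oas1c (ENSMUSG00000001166, chromosome 5, 120800194 to 120812514, minus strand) had 10.4, 7.82 and 10.5 CPM in the KO libraries, against 4.94, 4.14 and 4.0 CPM in the WT libraries. Its log2 fold change was 1.13 (SE 0.17, edgeR adjusted p = 0.00107). In the WT libraries Oas1a, Oas1b and Oas1c had similar levels, between 2.87 and 4.94 CPM, whereas in the KO libraries the ranges of these 3 genes did not meet.

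The 4 other annotated Oas1 paralogs were at or near 0. Oas1f and Oas1h had 0 counts in all 6 libraries, which allows up to 3 counts in each. Oas1d had 1 count over the KO libraries and 1 over the WT libraries. Oas1e had 4 counts over the KO libraries and 1 over the WT libraries, a ratio of 3.80 with an exact 95% counting interval of 0.377 to 187.4. None of these 4 genes was tested.

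The genes with several OAS units in 1 protein, Oas2 and Oas3, both rose and differed in level. Oas3 (ENSMUSG00000032661, chromosome 5, 120753098 to 120777661, minus strand), whose human protein binds long double-stranded RNA and is a main source of 2-5A, had 316, 289 and 231 CPM in the KO libraries, against 28.5, 21.8 and 24.9 CPM in the WT libraries. Its log2 fold change of 3.47 (with SE 0.14, edgeR adjusted p = 3.63e-06) had the smallest SE in the family, on 7330, 7752 and 5377 counts in the KO libraries and 658, 517 and 571 counts in the WT libraries. Oas2 (ENSMUSG00000032690, chromosome 5, 120730333 to 120749853, minus strand) had 7.12, 8.75 and 7.4 CPM in the KO libraries, against 0.563, 0.803 and 1.13 CPM in the WT libraries. Its log2 fold change was 3.21 (SE 0.25, edgeR adjusted p = 5.38e-05), and its KO libraries lay within 1.23-fold of each other.

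Per length, the order of the levels differed between the genotypes. Levels per kilobase (RPKM) were taken as CPM over the length of all annotated exons of a gene. In KO cells Oas3, Oasl1 and Oas1a stood at 39.4 ± 6.13, 35.8 ± 8.17 and 34 ± 8.30 RPKM (SD, n = 3), in that order in each library but closer together than their SD. Oasl2 followed at 12.7 ± 4.81 RPKM and Oas1b at 8.73 ± 0.205 RPKM in KO cells, with ranges that overlapped. Oas1c at 3.98 ± 0.631 RPKM, Oas2 at 1.74 ± 0.196 RPKM and Oas1g at 0.787 ± 0.461 RPKM came last in KO cells, and none of these 3 overlapped the next. In WT cells Oas3 led with 3.55 ± 0.473 RPKM. Oas1a, Oas1c and Oas1b, at 2.15 ± 0.274, 1.81 ± 0.210 and 1.80 ± 0.337 RPKM in WT cells, overlapped each other. Oasl1 at 0.932 ± 0.335 RPKM, Oas2 at 0.187 ± 0.0641 RPKM, Oasl2 at 0.126 ± 0.00868 RPKM and Oas1g at 0.0244 ± 0.0212 RPKM followed in WT cells, where Oas2 and Oasl2 overlapped. Oasl1 thus ranked 2 in every KO library and 5 in every WT library.

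The make-up of the family's summed RPKM differed accordingly. Oasl1 held 26.0 ± 0.696% of the sum in KO cells and 8.70 ± 2.53% in WT cells, and Oasl2 held 9.05 ± 1.68% in KO cells and 1.2 ± 0.204% in WT cells. Oas1b held 6.54 ± 1.34% in KO cells and 16.9 ± 1.61% in WT cells, and Oas1c held 2.99 ± 0.867% in KO cells and 17.2 ± 2.06% in WT cells. Oas1a held 24.6 ± 1.10% in KO cells and 20.4 ± 2.52% in WT cells, and Oas3 held 28.9 ± 1.57% in KO cells and 33.5 ± 2.22% in WT cells (SD, n = 3 for each share). Ranges did not overlap between the genotypes for these 6 genes, but did for Oas2 and Oas1g. As parts of 1 sum, these shares depend on each other.

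The family lies in a pair of groups on chromosome 5, and the annotated starts of Oas1c and Oas1b face away from each other across 120 bases (GENCODE M21, GRCm38). RefSeq promoter windows, 250 bases before to 50 after the start on GRCm38.p6, were found for 6 of the 8 members. They were searched on both strands for GAAA followed after any 2 bases by GAAA, the core of the interferon-stimulated response element to which IRF proteins bind. The core was in 4 of the 6 windows, those of Oas3, Oas1c, Oas1g and Oas1a, and in 3.44% of 32851 windows of the genome-wide table. Matches of a motif in a window are a description and not evidence of binding. The 120 bases before the start are printed 5′ to 3′ on each gene's own strand to show where the cores sit, with bases of a core in capitals.
Oas1a: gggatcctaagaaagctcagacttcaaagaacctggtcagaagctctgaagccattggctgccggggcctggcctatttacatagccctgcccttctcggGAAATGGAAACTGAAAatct
Oas1g: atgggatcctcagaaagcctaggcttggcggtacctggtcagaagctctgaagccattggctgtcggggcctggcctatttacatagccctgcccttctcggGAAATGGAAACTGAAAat
Oas1c: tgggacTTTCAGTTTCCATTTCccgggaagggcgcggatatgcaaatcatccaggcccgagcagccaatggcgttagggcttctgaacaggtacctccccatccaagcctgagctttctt
Oas3: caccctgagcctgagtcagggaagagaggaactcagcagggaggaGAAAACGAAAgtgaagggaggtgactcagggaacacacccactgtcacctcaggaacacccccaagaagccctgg
Oasl1: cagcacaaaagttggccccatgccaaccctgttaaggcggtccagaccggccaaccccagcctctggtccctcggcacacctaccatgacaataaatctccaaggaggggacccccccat
Oasl2: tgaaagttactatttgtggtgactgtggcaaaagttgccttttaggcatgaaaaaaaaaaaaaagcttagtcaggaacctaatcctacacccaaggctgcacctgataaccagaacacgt
These stretches are chr5:120907526-120907645 for Oas1a, chr5:120887614-120887733 for Oas1g, chr5:120812515-120812634 for Oas1c and chr5:120777660-120777779 for Oas3, all on the minus strand, and chr5:114923120-114923239 for Oasl1 and chr5:114896814-114896933 for Oasl2 on the plus strand.

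Oas1a, Oas1g and Oas1c share the same 16 letters, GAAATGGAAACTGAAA, in which 2 cores overlap. A run of this form, GAAA 3 times with any 2 bases between, was in 0.116% of all windows, and this longer pattern was searched after the letters had been seen. In Oas1a it lies from 20 to 5 bases before the start and in Oas1g from 18 to 3 bases before it. In the Oas1c window it lies on the other strand, so its letters appear in reverse complement. The stretch shown for Oas1c is also the whole interval up to the annotated start of Oas1b, and read in the direction of Oas1b the run lies from 22 to 7 bases before that start. The genes with this run had log2 fold changes between 1.13 and 4.88. The Oas3 core, GAAAACGAAA, lies from 75 to 66 bases before the start. Oasl1 and Oasl2 did not have these letters in their windows. The gamma-activated site letters TTCNNNGAA were in the Oas1a window, as TTCAAAGAA from 98 to 90 bases before the start, in no other window of the 6 members, and in 8.30% of all windows.

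**Figure D2:**
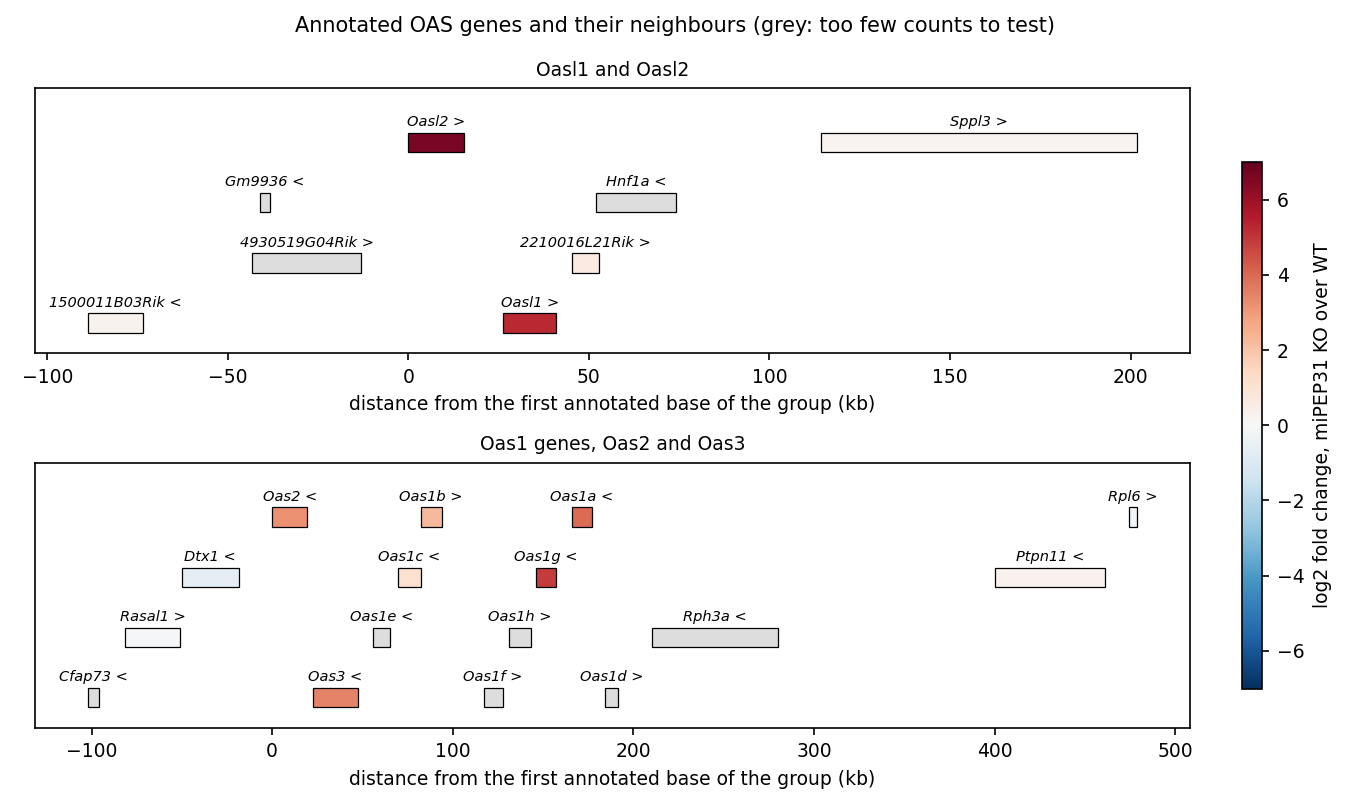
Annotated OAS genes and the 3 protein-coding genes on each side of both groups, drawn to scale by distance in kb (horizontal), coloured by log2 fold change of miPEP31 KO over WT; > and < give the strand, rows are only for legibility, and grey genes had too few counts to test. The 8 tested OAS genes are coloured more deeply than their neighbours, whose log2 fold changes lay between -0.70 and 0.64. Oas1d, Oas1e, Oas1f and Oas1h are grey.

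Of the 12 flanking protein-coding genes, 7 were tested, of which 2 rose, 2 fell and 3 did not pass, shares near the 25.1% higher and 22.2% lower of all tested genes. The gene model 2210016L21Rik, which follows Oasl1 directly, had 38.0, 38.1 and 36.6 CPM in the KO libraries, against 23.9, 23.3 and 25.0 CPM in the WT libraries, a log2 fold change of 0.64 (with SE 0.07, edgeR adjusted p = 2.20e-04). Dtx1, a ubiquitin ligase gene of the Notch pathway beside Oas2, had 6.94, 10.5 and 14 CPM in the KO libraries, against 19.2, 16.3 and 15.6 CPM in the WT libraries. The KO libraries lay below the WT libraries for Dtx1, with a log2 fold change of -0.70 (with SE 0.23, edgeR adjusted p = 0.0344). Ptpn11, the gene of the phosphatase SHP2, stood at 163 ± 22.8 CPM in KO cells and 130.0 ± 3.56 CPM in WT cells, with a log2 fold change of 0.32. The calls of both were lost in part of the alternatives, without WT replicate 1 among them (edgeR adjusted p = 0.121 for Dtx1 and 0.0936 for Ptpn11). The ribosomal protein gene Rpl6 fell by 0.27 on the log2 scale (SE 0.05), and Rasal1, Sppl3 and 1500011B03Rik had log2 fold changes of -0.08, 0.17 and 0.22, of which 1500011B03Rik was called higher with plain library sizes (edgeR adjusted p = 0.0430).

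The KO libraries were not alike. On the log2 scale and against the mean of WT libraries, the 8 genes had a median of 3.97, 3.59 and 3.14 in KO replicates 1, 2 and 3, and between -0.08 and 0.13 in the WT libraries. The median of all tested genes was between 0.01 and 0.03 in the KO libraries. Oasl2, Oasl1, Oas1g, Oas1a and Oas3 were each highest in KO replicate 1 and lowest in KO replicate 3, and the highest KO library exceeded the lowest by 1.37-fold in Oas3 to 3.34-fold in Oas1g. Oas2, Oas1b and Oas1c did not have that order, and their KO libraries differed by 1.05-fold to 1.34-fold. The share of all tested genes with that order was not counted. The summed type I and type III interferon genes, 19 in all and without Ifng, stood at 20.1, 8.56 and 2.67 CPM in KO replicates 1, 2 and 3 and at 0, 0.0845 and 0.0871 CPM in the WT libraries. Their part in the differences between the KO libraries was not tested. Leaving out each library in turn, all 8 genes stayed higher in the KO with adjusted p under 0.05, the log2 fold change of Oasl2 lying between 6.34 and 6.88 and that of Oas1c between 1.04 and 1.25.

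**Figure D3:**
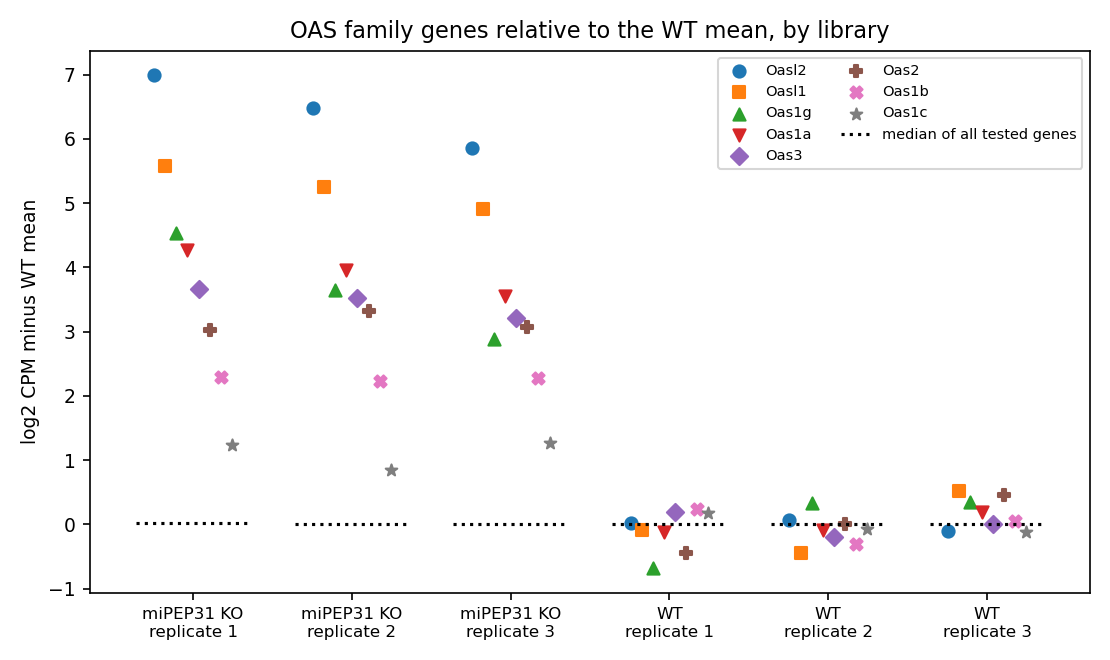
Level of each OAS family gene relative to the mean of the WT libraries (vertical, log2 CPM minus WT mean, prior count 2) in each library, with a dotted line at the median of all tested genes. Oas1b stays between 2.23 and 2.29 in the KO libraries, whereas Oasl2 spans 5.86 to 6.99 there.

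Of the 3 listed genes that act on 2-5A or its pathway, 1 rose, 0 fell and 2 did not pass, where 25.1% of all tested genes rose and 22.2% fell. Abce1, whose protein recycles ribosomes and was described as an inhibitor of the 2-5A pathway, had 283, 249 and 219 CPM in the KO libraries, against 278, 289 and 297 CPM in the WT libraries (log2 fold change -0.20, SE 0.09, edgeR adjusted p = 0.108). It was called lower with upper-quartile scaling (edgeR adjusted p = 0.0484) and without KO replicate 1 (edgeR adjusted p = 0.00599). Pde12, a phosphodiesterase that degrades 2-5A, stood at 69.1 ± 5.89 CPM in KO cells and 65.7 ± 3.01 CPM in WT cells, with a log2 fold change of 0.07. Akap7, an anchoring protein of protein kinase A that in mice also degrades 2-5A, had 6.00, 6.51 and 5.72 CPM in the KO libraries, against 4.38, 4.01 and 4.31 CPM in the WT libraries. Its groups did not overlap and its log2 fold change was 0.52 (SE 0.14, edgeR adjusted p = 0.0156), a call lost without WT replicate 2 (edgeR adjusted p = 0.0629) and without KO replicate 2 (edgeR adjusted p = 0.0660).

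Sensors and effectors of double-stranded RNA mostly rose. Of 10 genes on the list 9 were tested, of which 8 rose, 0 fell and 1 did not pass, against 25.1% higher over all tested genes. The median log2 fold change of the list was 1.55. Zbp1, a sensor of Z-form nucleic acid, rose by 3.85 (SE 0.14) on the log2 scale and Ifih1, the gene of the RNA sensor MDA5, by 3.77 (SE 0.27). Ddx58, the gene of RIG-I, had 117, 102 and 96.9 CPM in the KO libraries, against 20.7, 22.7 and 22 CPM in the WT libraries. Eif2ak2, the gene of the kinase PKR, which like the OAS enzymes is activated by double-stranded RNA, had 205, 171 and 151 CPM in the KO libraries, against 34.7, 32.9 and 32.1 CPM in the WT libraries. Adar, an enzyme that edits double-stranded RNA, rose by 1.55 (SE 0.07), Dhx58 by 1.29 (SE 0.12), Irf3 by 0.46 (SE 0.06) and Zc3hav1 by 0.38 (SE 0.05). Mavs, the mitochondrial adaptor of RIG-I and MDA5, stood at 36.2 ± 0.250 CPM in KO cells and 35.7 ± 1.48 CPM in WT cells, with a log2 fold change of 0.02 (edgeR adjusted p = 0.842). Tlr3, an endosomal receptor of double-stranded RNA, had 10, 3 and 6 counts in the KO libraries and 0 in each WT library, at least 6.21-fold higher against a floor of 3 counts over the WT group, and was not tested.

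Of the 9 interferon signalling genes reported 7 rose, 0 fell and 2 did not pass, against the same 25.1% over all tested genes. Their median log2 fold change was 1.10. Of the transcription factors that act at interferon response elements, Irf9 rose by 2.06 (SE 0.07) and Stat2 by 1.87 (SE 0.07) on the log2 scale. Usp18, a feedback inhibitor of interferon receptor signalling, rose by 2.89 (SE 0.25), Irf1 by 1.10 (SE 0.08) and the receptor-bound kinase gene Tyk2 by 0.59 (SE 0.06). Of the receptor subunits, Ifnar1 had a log2 fold change of 0.11 (with SE 0.09, edgeR adjusted p = 0.366) and Ifnar2 one of 0.23 (SE 0.07, edgeR adjusted p = 0.0237). The Ifnar2 call was lost in 6 alternatives, among them a replicate block (edgeR adjusted p = 0.0665) and leaving out WT replicate 2 (edgeR adjusted p = 0.107). Jak1 had 311, 300 and 331 CPM in the KO libraries, against 293, 289 and 279 CPM in the WT libraries, and did not pass (edgeR adjusted p = 0.104), but was called higher with plain library sizes (edgeR adjusted p = 0.0383). Over the reported genes of the 2-5A, sensing and signalling lists together, 16 of 21 tested genes rose and 0 fell. Of all tested genes 25.1% rose and 22.2% fell. These lists were chosen with earlier results of these data known. This count and those of each list are a description and not a test.

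**Figure D4:**
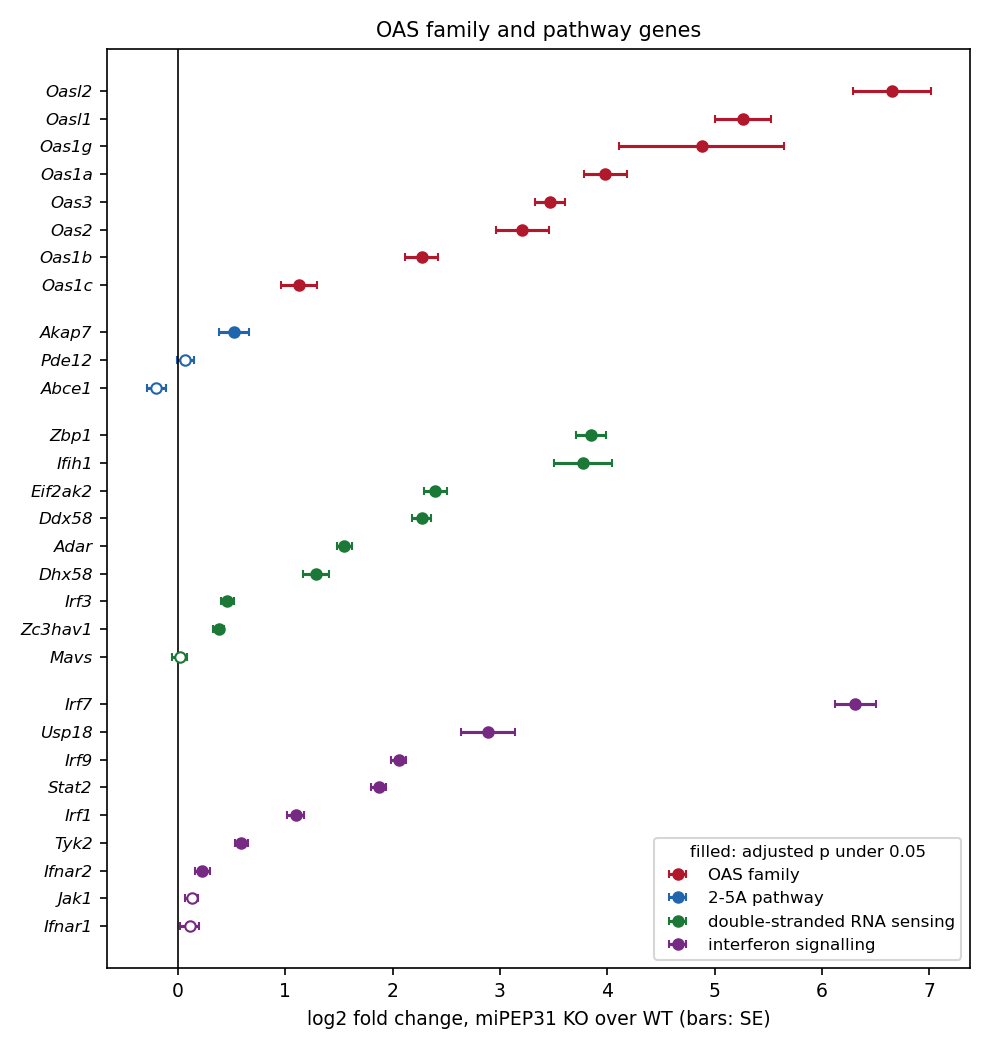
Log2 fold change of miPEP31 KO over WT (horizontal) with its SE for the OAS family and the tested genes of the 2-5A, double-stranded RNA sensing and interferon signalling lists; filled points passed the edgeR test at adjusted p under 0.05. The 8 OAS genes lie between 1.13 and 6.65, and the genes of the 2-5A list between -0.20 and 0.52.

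Among 10898 named protein-coding genes with a mean of at least 1 CPM, the 5 closest to the median profile of the 8 members over the 6 libraries were Ifitm3, Ccrl2, Ifit1bl1, Zbp1 and Ifih1. The measure was the root mean square difference of log2 CPM centred on the WT mean, which was 0.186 for Ifitm3, 0.199 for Ccrl2, 0.202 for Ifit1bl1, 0.210 for Zbp1 and 0.211 for Ifih1. Ifitm3, a membrane protein that restricts viral entry, had 59.6, 40.9 and 26.1 CPM in the KO libraries, against 4.20, 3.13 and 3.57 CPM in the WT libraries. Ccrl2, an atypical chemoattractant receptor, had 37.0, 30.3 and 22.3 CPM in the KO libraries, against 2.43, 2.62 and 1.92 CPM in the WT libraries. Ifit1bl1 had 52, 59 and 36 counts in the KO libraries and 2, 3 and 3 counts in the WT libraries. Its WT counts were at or under the floor, so its closeness is uncertain. Of the members themselves, Oas3 was nearest to the median profile at 0.17 and Oasl2 farthest at 2.04. The 6 libraries form a pair of separate groups, so this likeness mainly reflects the difference between genotypes.

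Marker genes of T cells were expressed in every library, and their sum was lower in the KO. The 7 T cell markers summed to between 1174 and 1202 CPM in KO libraries and between 1506 and 1594 CPM in WT libraries, and 7 of 7 fell without overlap, against 28.4% of all tested genes. The calls of Cd3e and Trbc2 were lost in part of the alternatives (highest edgeR adjusted p = 0.0714 for Cd3e and 0.107 for Trbc2). Summed macrophage and monocyte markers lay between 112 and 143 CPM in KO libraries and between 43.2 and 54.4 CPM in WT libraries. Of the 4 tested members 3 were higher, against 25.1% of all tested genes. Mpeg1, the gene of a pore-forming protein of phagocytes, had 62.6, 38.0 and 27.8 CPM in the KO libraries, against 1.08, 0.929 and 1.74 CPM in the WT libraries, and its log2 fold change was 5.09 (SE 0.38). Cybb rose by 1.81 (SE 0.18) and Ctss by 0.72 (SE 0.10) on the log2 scale, and Cd68 did not pass, at -0.48. Lyz2 had 22 counts over the KO libraries and 1 over the WT libraries, a ratio of 20.9 with an exact 95% counting interval of 3.38 to 863.6. Adgre1 and Fcgr1, defining macrophage genes, had 0 counts in all libraries, and Csf1r had 5 counts over the KO and 6 over the WT libraries. Summed dendritic cell markers lay between 111 and 128 CPM in KO libraries and between 22.7 and 28.3 CPM in WT libraries. Of the 4 tested members 2 were higher, against the same 25.1% of all tested genes. Batf3 alone, which activated T cells also express, made up 104.4 ± 9.04 CPM of that sum in KO cells and 18.9 ± 2.51 CPM in WT cells. Zbtb46 also rose, with 10.6, 10.2 and 7.27 CPM in the KO libraries, against 5.42, 3.13 and 5.09 CPM in the WT libraries. Its log2 fold change was 1.05 (SE 0.24, edgeR adjusted p = 0.00776). Itgax and Flt3 did not pass, at 0.22 and 0.52. Clec9a and Cd209a had 0 counts in all libraries, and Siglech, a marker of plasmacytoid dendritic cells, had 3 counts over the KO libraries and 0 over the WT libraries. B cell markers summed to 47.8, 62.6 and 93.1 CPM in KO replicates 1, 2 and 3 (3 of 6 higher). In WT libraries their sum lay between 40.6 and 61.2 CPM. CD8 T cell markers summed to 15.9, 28 and 36.9 CPM in KO replicates 1, 2 and 3 (1 of 2 higher). In WT libraries their sum lay between 12.5 and 15.8 CPM. NK cell markers summed to between 11.1 and 22 CPM in KO libraries and between 5.70 and 7.93 CPM in WT libraries (1 of 3 higher). Over all tested genes 25.1% rose, and these lists are short. The B cell and CD8 T cell sums were lowest in KO replicate 1 and highest in KO replicate 3. That was the reverse of the order of Oasl2, Oasl1, Oas1g, Oas1a and Oas3. The NK cell sum and the macrophage and monocyte sum were highest in KO replicate 1 and lowest in KO replicate 3. The T cell and dendritic cell sums had neither order. Eomes made up most of the NK cell sum, at 15.5 ± 5.73 CPM in KO cells and 5.34 ± 1.30 CPM in WT cells, while the other tested NK cell markers, Klrb1c and Klre1, had log2 fold changes of -1.01 and -0.63 and did not pass. Erythroid and granulocyte markers stayed under 1 CPM in sum, and 0 of 6 had enough counts to test. The part of other cell types in the OAS levels was not tested.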

How the data were processed

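Estimated counts for each gene, as the authors deposited them, were rounded before testing; 72.2% of values above 0 were whole. Bowtie 0.12.2 and the build mm8 are listed, without a role, in the submitters' processing notes. The counter, its annotation and its use of strand are not stated there. The 944 rows with MSTRG IDs stayed in library sizes and tests. Symbols, exon lengths and coordinates came from GENCODE M21 (GRCm38), matched by gene ID for 51719 rows and not converted. A deposited table of 30 genes held 0 members and was not used.

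Genes were kept with filterByExpr (minimum count 10). TMM scaling and the quasi-likelihood test of edgeR 4.0.16 (robust, no covariate) gave the results; SE is the log2 fold change without prior over the square root of F. DESeq2 1.42.0, limma 3.58.1 and R 4.3.3 were used for alternatives, and the tests were tried on simulated data. Ratios on few counts have exact 95% binomial intervals, and floors and intervals cover counting error only. Motif searches used RefSeq promoter windows (GRCm38.p6). Some pathway genes are not reported here, and the counts of the pathway lists leave them out. The members and lists were chosen with earlier results of these data known. The genes named were all members and paralogs, the rest of the pathway lists, 3 coding neighbours per side, and the 5 genes closest in profile.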

Additional observations from a re-analysis of the deposited data

How the results depend on the processing

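The 8 members kept their direction and their call under all 13 alternatives that gave them a value, 103 values in all; Oas1g was left out by the filter of at least 1 CPM in 3 libraries, so 7 members were called there. The numbers of genes called moved by less than 1.5 times. Members called higher were 8 without any 1 library. Pathway genes called higher numbered 14 to 17, and 15 with a replicate block, under which the 8 members were called as well. Same-numbered libraries did not deviate together (correlations 0.001, -0.007 and -0.016). This gave no sign of pairing by number, but it cannot exclude that such libraries were collected or handled together. Pathway genes called lower were 0, and 1 with upper-quartile scaling (Abce1); leaving out 1 library gave 0 to 1. Genes near 0 changed sign: Mavs to -0.02 with upper-quartile scaling or without WT replicate 2 (-0.02 to 0.04), Pde12 to -0.0023 and Ifng to -0.22 without KO replicate 1 (up to 0.75 without KO replicate 3), and Rasal1 to between 0.02 and 0.10 without WT replicate 1 or KO replicate 3 (-0.30 without KO replicate 1); the cause was not tested. The low counts of Oas1g in WT cells limit its fold.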

Other observations

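Type I and type III interferon genes themselves were at or near 0 in WT cells. Of 19 type I and type III genes, 16 had 0 counts in every WT library, and 12 of these had counts in KO cells. Among those 12, Ifna9, Ifna13 and Ifne each had 1 count over the KO libraries and Ifna15 had 2, under the floor of 3 counts. Ifna12 and Ifna14 had 5 and 4 counts, all in KO replicate 1. Ifnb1, the gene of interferon beta, had 52, 26 and 9 counts in KO replicates 1, 2 and 3 and 0, 1 and 0 counts in the WT libraries, a ratio of 82.8 with an exact 95% counting interval of 14.5 to 3306. Ifna4 had 36, 19 and 8 counts in the KO libraries and 0 in each WT library, at least 20.2-fold higher against a floor of 3 counts over the WT group. Ifnl2 and Ifnl3, the genes of interferon lambda, had 141, 95 and 21 counts and 57, 34 and 5 counts in the KO libraries, with 2 and 0 counts over the WT libraries. Only Ifna2 and Ifnl2 had enough counts to be tested, through the KO libraries alone, so a rise was the only difference the test could find (edgeR adjusted p = 0.00891 and 0.00165); with no filter on low counts Ifna2 did not pass (edgeR adjusted p = 0.168). Ifng, the type II interferon gene, had 168, 91.6 and 38.9 CPM in the KO libraries, against 61.0, 104.5 and 62.8 CPM in the WT libraries, and did not pass (edgeR adjusted p = 0.516). In the KO libraries each of Ifnb1, Ifna4, Ifnl2, Ifnl3 and Ifng was highest in replicate 1 and lowest in replicate 3. Oasl2, Oasl1, Oas1g, Oas1a and Oas3 had that order, as did Ptpn11, and Abce1 and Rasal1, which did not pass. Oas2, Oas1b and Oas1c did not have it, and the share of all tested genes with this order was not counted. The interferon alpha genes have close paralogs, as do Ifnl2 and Ifnl3, so reads may be shared among them. Ifnb1 (from base 88522025), Ifna2 (from base 88682881) and Ifna4 (from base 88841861) lie on chromosome 4, near Mir31 of the targeted locus (from base 88910557). The other listed interferon alpha genes, Ifnab and Ifne lie there as well. Ifnl2 and Ifnl3 lie on chromosome 7. Any part of the altered locus in the counts of its neighbours was not tested.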
